A study of Mus musculus with 8 samples.

Results

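Ribosome biogenesis and nucleolar genes were followed as a list of 46 symbols, chosen for their known role in making ribosomes and matched to the identifiers of the deposited tables through GENCODE M21. All 46 were among the 47643 genes of the tables, and all 46 had enough reads to be tested. The 8 libraries came from peritoneal macrophages of C57 BL/6 mice, phagocytes of the abdominal cavity, and were made to ask how these cells respond to apoptotic neighbours. In the first group (MΦ+FV-Casp8+Dimerizer, 4 libraries) 500000 macrophages per well shared the medium of NIH 3T3 fibroblasts through a transwell membrane with 5 µm pores. These fibroblasts came from single clones that carry FV-hCasp8, a human caspase-8 that B/B Homodimerizer brings together and so turns on, which kills the cell by apoptosis. The second group (MΦ+Dimerizer, 4 libraries) held macrophages without fibroblasts. Both groups received 10 nM dimerizer, RNA was taken 48 h later, and the study describes its replicates as macrophages from individual animals. Macrophages kept with living fibroblasts were not analysed here, so the presence of fibroblasts and their death cannot be told apart in this comparison.

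Ribosomes are built in the nucleolus, where RNA polymerase I copies the ribosomal DNA into a long precursor RNA. Small nucleolar ribonucleoproteins (snoRNPs) of the box C/D kind methylate this precursor and those of the box H/ACA kind turn some of its uridines into pseudouridine, while many assembly factors fold, cut and trim it into the small and the large subunit. Dividing cells need many new ribosomes, and the transcription factor MYC is known to raise many of the genes that make them.

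The libraries were read from the 3′ end of the mRNA (QuantSeq), and the values below are normalized counts, that is reads divided by a size factor of the library. They held 5904441 to 11506556 reads each, of which 6.18% to 8.98% went to the single transcript Gm42418 and 5.59% to 7.52% to mitochondrial genes. All 7 macrophage markers were detected, with a summed count of 226984 to 254353 in the co-cultured macrophages and 201881 to 208957 with dimerizer alone. Lyz2 made up most of that sum, and by gene Adgre1 and Itgam were higher in the co-culture, Mertk was lower and the other 4 did not pass. Markers of other cells moved with the groups. Of 8 fibroblast markers tested, 6 were lower in the co-culture. The sum over the list was 10703.7 to 18984.7 there, against 19752.6 to 28774.6 with dimerizer alone. Fn1 made up most of that sum in every library. By itself Fn1 overlapped between the groups, at 7843 to 14678 in the co-culture and 13075 to 19239 with dimerizer alone. All 3 mesothelial and both red cell markers tested were lower as well. Of these, Lrrn4, Hbb-bs and Hba-a1 reached the mean count needed for a test only through their dimerizer libraries. Their means were 23.6, 120 and 22.8 with dimerizer alone and 4.35, 5.45 and 1.23 in the co-culture. Msln and Krt19, low in both groups, and Hba-a2 were not tested. That all tested markers of these 2 kinds were lower is therefore in part set by the filter. For B cells 1 of 5 markers was higher, for neutrophils 1 of 2 was lower, for mast cells 0 of 5 passed, and the 4 T and NK cell markers lay at means of 2.73 or less. The B cell sum averaged 1153 ± 507 in the co-culture and 654 ± 308 with dimerizer alone (SD, n = 4 each). The mast cell sum averaged 1030 ± 400 and 1839 ± 1366 in the same order, and both sums overlapped between the groups. These are bulk libraries, so a change in the number of cells of a type and in the RNA per cell cannot be told apart, and the part of these shifts in the results below was not tested.

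Few of the ribosome biogenesis genes passed the test for a change with apoptotic cells. Of the 46 genes, 5 were higher in MΦ+FV-Casp8+Dimerizer than in MΦ+Dimerizer at a limma adjusted p under 0.05 (Bysl, Nop56, Gnl3, Rrs1 and Nop10) and 0 were lower. Over all 12029 genes tested 15.0% were higher and 13.7% were lower by the same rule, 28.7% in all. The share higher among the 46 was 10.87%, and its difference from the background was not tested. At an unadjusted p under 0.05, 10 of the 46 were higher, close to the background of 20.1%, and 1 was lower, against 19.2% of all genes, and DESeq2 and edgeR called 4 of the 46 higher and 0 lower. All 4 co-culture libraries lay above all 4 dimerizer libraries for 4 of the 46 (Bysl, Gnl3, Nop56 and Nop2), where 15.3% of all genes did so, and below them for 1 (Polr1c), where 14.1% did. The count of 5 varied with the library left out and with the scaling, as did the count of 1806 higher over all genes. For the 46 it was 1 (Bysl) without dimerizer replicate 1, 2 without co-culture replicate 2 and 3 without co-culture replicate 3. Over all genes 1449, 1485 and 1561 were higher in these fits. Without co-culture replicate 1 the count was 7 for the 46 and 1698 over all genes. The count for the 46 was also 3 with quantile normalization and 8 with counts scaled to the total reads of the library. Over all genes 1666 and 2176 were higher under these settings.

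The changes were small and mostly to one side. The log2 fold change, computed on log2(normalized count + 1) as MΦ+FV-Casp8+Dimerizer over MΦ+Dimerizer, was above 0 for 37 of the 46 genes, against 51.0% of all genes tested. Its median was 0.14, with a range of -0.36 to 0.60, and the median over all genes tested was 0.01. For every one of the 46 the 95% interval lay within 2-fold in either direction, which held for 79.4% of all genes, and for 37 it lay within 1.5-fold, which held for 54.9%. Mean counts of the 46 ranged between 33.1 for Polr1b and 4614 for Ncl.

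**Figure D1:**
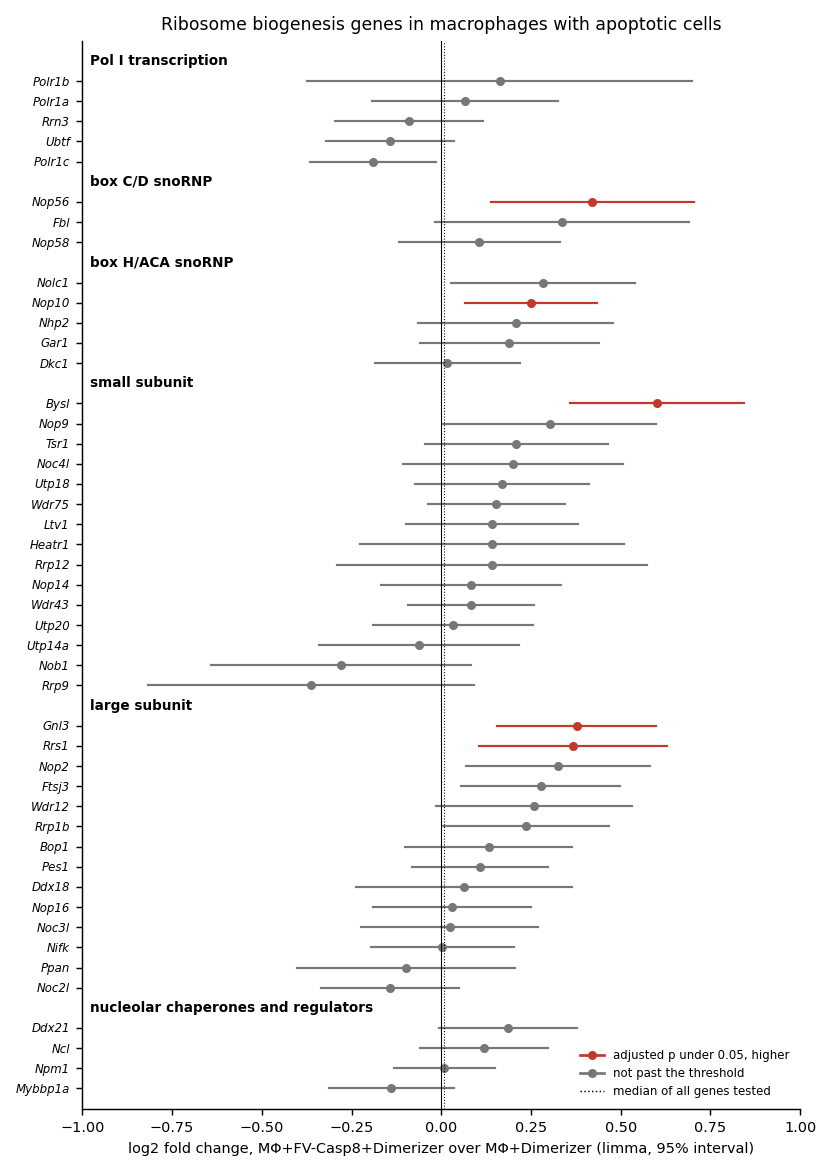
Log2 fold change, MΦ+FV-Casp8+Dimerizer over MΦ+Dimerizer, of the 46 genes by role (points, limma estimates from 4 against 4 libraries; bars, 95% intervals; dotted line, median of all genes tested). The 5 genes in red passed an adjusted p of 0.05, and no interval extends below -0.82 or above 0.84.

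Transcription by RNA polymerase I was represented by 5 genes, of which 0 passed the test, and their median log2 fold change was -0.09. Polr1c, a subunit shared by RNA polymerases I and III, had counts of 248.1, 271.8, 278.7 and 275.8 in the co-culture and 317.4, 299.2, 296.3 and 312.5 with dimerizer alone. Every co-culture library lay below every dimerizer library, at means of 269 ± 14.0 and 306 ± 10.2 (SD, n = 4 each), yet the log2 fold change of -0.19 missed the threshold (limma adjusted p = 0.101). Quantile normalization brought it past the threshold, with an adjusted p of 0.0479 for Polr1c by limma. Ubtf, the upstream binding factor that opens ribosomal DNA for transcription, had 414.6, 398.0, 396.7 and 368.2 in the co-culture and 413.6, 401.1, 473.1 and 456.0 with dimerizer alone, and the groups overlapped. Rrn3, which brings the polymerase to the promoter, had 271.0, 316.2, 313.3 and 255.6 in the co-culture, against 309.2, 319.9, 318.5 and 280.1 with dimerizer alone. Its groups overlapped too, with co-culture replicates 1 and 4 the lowest of the 8. The catalytic subunits Polr1a and Polr1b had log2 fold changes of 0.07 and 0.16, the second with a wide 95% interval of -0.37 to 0.70 at the lowest counts of the list.

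Of the core proteins of box C/D snoRNPs the list held 3. All of these had log2 fold changes above 0, with a median of 0.34, and 1 of the 3 passed. Nop56, a scaffold of the particle, had 125.2, 153.2, 160.7 and 138.9 counts in the co-culture and 92.1, 121.2, 120.4 and 98.3 with dimerizer alone. The lowest co-culture library stood above the highest dimerizer library, and the means were 144 ± 15.7 and 108 ± 15.0 (SD, n = 4 each). On the log2 scale Nop56 was higher by 0.42 (SE 0.13, limma adjusted p = 0.0287). The call was lost when co-culture replicate 2, 3 or 4 or dimerizer replicate 1 or 4 was left out, with limma adjusted p values for Nop56 of 0.0698, 0.0828, 0.0534, 0.0867 and 0.0744. Fibrillarin (Fbl), the methyltransferase of the particle, had 50.5, 68.3, 62.1 and 76.2 in the co-culture and 55.0, 49.0, 51.9 and 45.2 with dimerizer alone. Here co-culture replicate 1 fell among the dimerizer libraries and the other three stood above them, and the log2 fold change of 0.34 did not pass (limma adjusted p = 0.145). Nop58, the partner scaffold of Nop56, had 534.1, 685.6, 673.4 and 631.8 in the co-culture and 538.7, 693.9, 582.4 and 533.6 with dimerizer alone, and the groups overlapped over nearly their whole range.

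Some of the 46 genes also carry small nucleolar RNAs, counted here without sorting them into the box C/D and box H/ACA kinds. By GENCODE M21, 8 of the 46 genes (Nop56, Nop58, Dkc1, Wdr43, Tsr1, Ppan, Gnl3 and Ncl) held annotated small nucleolar RNAs on their own strand, 23 in all, which was 17.4% of the list against 2.02% of the genes tested. The 3′ libraries read the host mRNA, and the small RNAs themselves were not measured. Shown here are the named snoRNAs inside Nop56 (chr2:130274430-130279313, plus strand) and Gnl3 (chr14:31012433-31019152, minus strand), the hosts among the genes that rose. All lie in introns (GRCm38), at chr2:130275506-130275573 for Snord110, chr2:130278016-130278087 for Snord57, chr14:31014287-31014366 for Snord69 and chr14:31016206-31016281 for Snord19. Capitals mark box C (RTGATGA, found in Snord110 and Snord69 only) near the 5′ end and box D (CTGA) near the 3′ end.
Snord110: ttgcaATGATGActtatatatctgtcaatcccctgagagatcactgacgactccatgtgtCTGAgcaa
Snord57: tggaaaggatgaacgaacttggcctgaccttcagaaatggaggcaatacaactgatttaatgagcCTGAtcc
Snord69: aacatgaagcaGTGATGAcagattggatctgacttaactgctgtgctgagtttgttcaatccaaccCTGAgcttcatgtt
Snord19: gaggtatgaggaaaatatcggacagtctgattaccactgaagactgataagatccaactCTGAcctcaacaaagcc

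Among the 5 genes of box H/ACA snoRNPs, 1 rose and all had log2 fold changes above 0, with a median of 0.21. Nop10, the smallest core protein of the particle, had 861.4, 1015.3, 887.1 and 857.0 counts in the co-culture and 700.8, 731.3, 750.9 and 863.8 with dimerizer alone. Dimerizer replicate 4 lay inside the co-culture range and the other three lay below it. The log2 fold change of Nop10 was 0.25 (SE 0.09, limma adjusted p = 0.0428), the weakest of the 5 calls. It was lost without the filter on low counts, with quantile or upper-quartile scaling, with edgeR, with DESeq2 and with array weights, at adjusted p values for Nop10 between 0.0501 (edgeR) and 0.0620 (limma, upper-quartile scaling). It was also lost in limma when co-culture replicate 2, 3 or 4 or dimerizer replicate 1, 2 or 3 was left out, at adjusted p values for Nop10 of 0.111, 0.0696, 0.0558, 0.127, 0.0921 and 0.0809.

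Nolc1, a chaperone of these particles, had 342.3, 465.6, 461.8 and 411.3 in the co-culture and 329.8, 374.0, 386.1 and 288.9 with dimerizer alone. Co-culture replicate 1 lay within the dimerizer range, and the log2 fold change of 0.28 missed the threshold (limma adjusted p = 0.0920). Without that library the adjusted p of Nolc1 was 0.0236 by limma, and it was 0.0443 with counts scaled to the total reads. Nhp2, another core protein, had 183.8, 259.8, 189.2 and 193.5 in the co-culture and 171.8, 193.5, 189.8 and 155.3 with dimerizer alone, so that only co-culture replicate 2 stood clear of the other group. Gar1, the last of the small core proteins, had a log2 fold change of 0.19 (95% interval -0.06 to 0.44), and dyskerin (Dkc1), the pseudouridine synthase, had 0.02 (95% interval -0.19 to 0.22).

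For the small subunit 1 of 15 genes rose, and 12 of the 15 log2 fold changes were above 0, with a median of 0.14. Bysl encodes bystin, a factor of the precursor of the small subunit. It had 143.6, 166.0, 147.5 and 133.5 counts in the co-culture and 100.3, 101.9, 92.6 and 92.4 with dimerizer alone. The groups stood far apart, with means of 148 ± 13.6 and 96.8 ± 5.02 (SD, n = 4 each). At 0.60 (SE 0.11, limma adjusted p = 0.00135) this was the largest log2 fold change of the 46, and it passed at an adjusted p of 0.05 under every setting tried and without any one library.

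Bysl has a neighbour that moved further. Bysl lies on the minus strand at chr17:47599331-47611492 (GRCm38) and Ccnd3, the gene of cyclin D3, on the plus strand at chr17:47505051-47599691, and their exons share 361 bases, which hold the 3′ end of both genes in that annotation. Ccnd3 had 490.4, 597.8, 524.9 and 560.3 counts in the co-culture and 261.1, 259.3, 289.8 and 287.0 with dimerizer alone, without overlap (log2 fold change 0.98, SE 0.09, limma adjusted p = 4.01e-06). The sources used here do not give whether reads were counted by strand, and without strand the reads of the shared stretch cannot be told apart. In 11 of the 46 genes the 3′ end lies inside a gene of the other strand, and in 0 inside a gene of the same strand. Of the genes that rose, Nop56 is the other one of these, with 5 bases shared with Idh3b, whose log2 fold change was -0.10 (limma adjusted p = 0.425).

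Nop9, known from yeast as a processing factor of the small subunit's RNA, had 194.1, 298.9, 286.9 and 236.7 in the co-culture and 184.1, 188.3, 237.0 and 206.4 with dimerizer alone. Co-culture replicates 1 and 4 lay within the dimerizer range (log2 fold change 0.30, limma adjusted p = 0.120), and without replicate 1 the adjusted p of Nop9 was 0.0218 by limma. Tsr1, which acts late on the precursor of the small subunit, had 187.2, 220.8, 257.4 and 220.5 in the co-culture and 177.3, 211.5, 206.5 and 169.0 with dimerizer alone, again with replicate 1 low in the co-culture. Wdr43, a part of the early processome that binds the growing precursor, had 685.7, 771.2, 823.0 and 735.0 in the co-culture and 685.7, 722.3, 778.7 and 659.4 with dimerizer alone, overlapping almost throughout.

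The other 11 genes of the small subunit did not pass either. Wdr75, Utp18, Utp20, Utp14a, Heatr1, Nop14 and Noc4l, all factors of the early processome, had log2 fold changes between -0.06 (Utp14a) and 0.20 (Noc4l), and Rrp12 and Ltv1, which accompany the precursor on its way to the cytoplasm, had 0.14 each. Rrp9, a protein of the U3 snoRNP, and Nob1, the nuclease that makes the last cut at the 3′ end of the small subunit's RNA, were at the low end of all 46 genes. Rrp9 averaged 64.6 ± 18.8 counts in the co-culture and 80.9 ± 10.9 with dimerizer alone (SD, n = 4 each), which is -0.36 on the log2 scale with a 95% interval of -0.82 to 0.09. Nob1 averaged 46.7 ± 2.94 in the co-culture and 57.5 ± 9.51 with dimerizer alone (SD, n = 4 each), or -0.28 on the log2 scale with a 95% interval of -0.64 to 0.08. Both groups of libraries overlapped for both genes.

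The large subunit was represented by 14 genes, of which 2 rose, with a median log2 fold change of 0.12. Gnl3, the nucleolar GTPase nucleostemin, known for its high level in stem cells and dividing cells, had 698.3, 829.1, 826.0 and 692.5 counts in the co-culture and 513.9, 620.4, 682.4 and 534.6 with dimerizer alone. The groups did not overlap, but co-culture replicate 4 and dimerizer replicate 3 were close to each other. Gnl3 rose by 0.38 on the log2 scale (SE 0.10, limma adjusted p = 0.0144), and at the threshold of 0.05 the call was lost only without dimerizer replicate 1, with an adjusted p for Gnl3 of 0.0536. Rrs1 lies on 1 exon at chr1:9545408-9547455 (plus strand) and is known from yeast to bring a small ribosomal RNA into the large subunit. It had 288.3, 360.5, 237.0 and 261.0 in the co-culture and 219.9, 239.9, 209.3 and 210.3 with dimerizer alone. Co-culture replicate 3 lay just below the highest dimerizer library, and replicate 2 stood above all others.

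The log2 fold change of Rrs1 was 0.37 (SE 0.12, limma adjusted p = 0.0380). It missed the threshold with quantile normalization, at an adjusted p for Rrs1 of 0.0655, and without co-culture replicate 1 or 2 or dimerizer replicate 1, 3 or 4, at 0.0712, 0.0982, 0.0766, 0.0825 and 0.0838 (limma).

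Nop2, a methyltransferase of the large subunit's RNA, had 118.3, 138.2, 127.2 and 125.4 in the co-culture and 96.2, 91.6, 101.9 and 116.9 with dimerizer alone. Its groups did not overlap, though dimerizer replicate 4 came close to co-culture replicate 1, and the log2 fold change of 0.33 stayed just short of the threshold (limma adjusted p = 0.0556). The adjusted p of Nop2 was 0.0492 with only genes of a mean above 30, 0.0362 with counts scaled to the total reads and 0.0345 without dimerizer replicate 4. Ftsj3, another RNA methyltransferase, was similar, with a log2 fold change of 0.28 (limma adjusted p = 0.0607), and passed with counts scaled to the total reads (0.0262 for Ftsj3) and without co-culture replicate 4 (0.0344) or dimerizer replicate 3 (0.0294).

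Pes1, Bop1 and Wdr12 form one complex, PeBoW, that is needed for the large subunit. Their log2 fold changes were 0.11, 0.13 and 0.26, and 0 of the 3 passed. Rrp1b (0.24), a nucleolar partner of protein phosphatase 1, did not pass either, nor did the RNA helicase Ddx18 (0.06) or the assembly factors Nop16 (0.03), Noc3l (0.02) and Nifk (0.00), the last known as a binding partner of the Ki-67 protein. Ppan and Noc2l were on the other side of 0, at -0.10 and -0.14, with 95% intervals of -0.40 to 0.21 and -0.33 to 0.05.

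**Figure D2:**
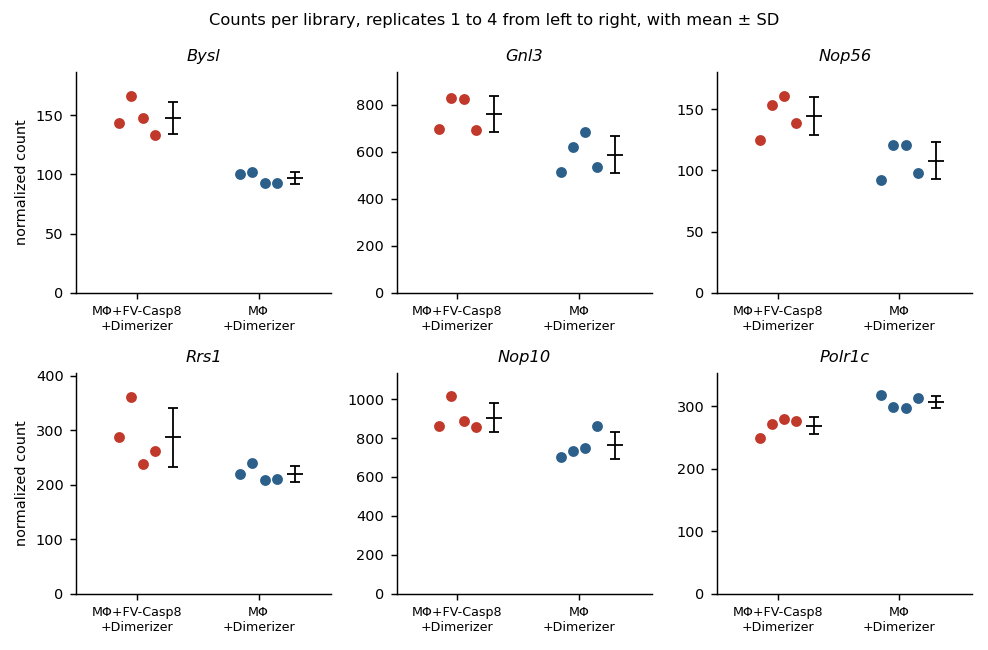
Normalized counts per library (points, replicates 1 to 4 from left to right) of the 5 genes that rose and of Polr1c, with the mean and SD of each group (n = 4), on axes that start at 0. Bysl, Gnl3 and Nop56 do not overlap between the groups, Rrs1 and Nop10 do, and all 4 co-culture libraries of Polr1c lie below the 4 dimerizer libraries.

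Of the 4 abundant nucleolar chaperones and regulators 0 passed, with a median log2 fold change of 0.06. Nucleolin (Ncl), which binds the precursor RNA, had 4625.0, 4701.8, 5321.3 and 4555.5 counts in the co-culture and 4211.8, 4369.9, 5018.5 and 4107.8 with dimerizer alone. Replicate 3 was the highest library of both groups, and the groups overlapped at a log2 fold change of 0.12 (95% interval -0.06 to 0.30). Nucleophosmin (Npm1), a histone and ribosome chaperone, had the narrowest interval of the list, -0.13 to 0.15 around a log2 fold change of 0.01. Npm1 has processed copies in the mouse genome that can share reads with it, and the sources used here do not say how such reads were treated.

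The RNA helicase Ddx21 had 1318.5, 1522.9, 1814.8 and 1532.7 in the co-culture and 1284.8, 1372.4, 1406.5 and 1344.4 with dimerizer alone. Only co-culture replicate 1 lay within the dimerizer range. The log2 fold change was 0.19 (limma adjusted p = 0.139), and without that library the adjusted p of Ddx21 was 0.0341. Mybbp1a, a repressor that sits in the nucleolus, had 428.4, 422.8, 501.5 and 427.5 in the co-culture and 490.6, 501.7, 459.3 and 505.1 with dimerizer alone. Here co-culture replicate 3 was as high as the dimerizer libraries, the other three were below all of them, and the log2 fold change was -0.14 (limma adjusted p = 0.228).

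The 46 genes were then followed library by library. Their median deviation from each gene's own mean over the 8 libraries, on the log2 scale, was -0.06, 0.08, 0.16 and -0.01 in co-culture replicates 1 to 4 and -0.06, -0.02, 0.06 and -0.16 in dimerizer replicates 1 to 4. The groups overlapped. Co-culture replicates 2 and 3 were the highest of all, with 37 and 40 of the 46 genes above their own mean, against 17 and 22 in co-culture replicates 1 and 4. With dimerizer alone 15, 17, 27 and 11 of the 46 were above it. Replicate 3 was the highest library within each group. The order in the co-culture ran opposite to that of the fibroblast marker sum, which was 18984.7, 13852, 10703.7 and 16675 in replicates 1 to 4, but with dimerizer alone, where the sum was 28774.6, 28316, 19752.6 and 26847, it did not. There replicate 3 had the lowest sum and the highest median of the 46 genes, while replicate 4, with the lowest median, had the second lowest sum. Fn1 made up most of the fibroblast marker sum in every library, and the part of these markers in the spread was not tested.

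Added up, the 46 genes gave 19200.7 to 22194.7 normalized counts in the co-culture and 18109.7 to 20523 with dimerizer alone. The means were 20589.2 ± 1379 and 19065 ± 1076 (SD, n = 4 each), 7.99% higher in the co-culture, and the groups overlapped. As a share of all normalized counts of a library this was 0.240% to 0.278% in the co-culture and 0.227% to 0.248% with dimerizer alone. Ncl and Npm1 make up much of the sum, and without them it was 9.25% higher in the co-culture.

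**Figure D3:**
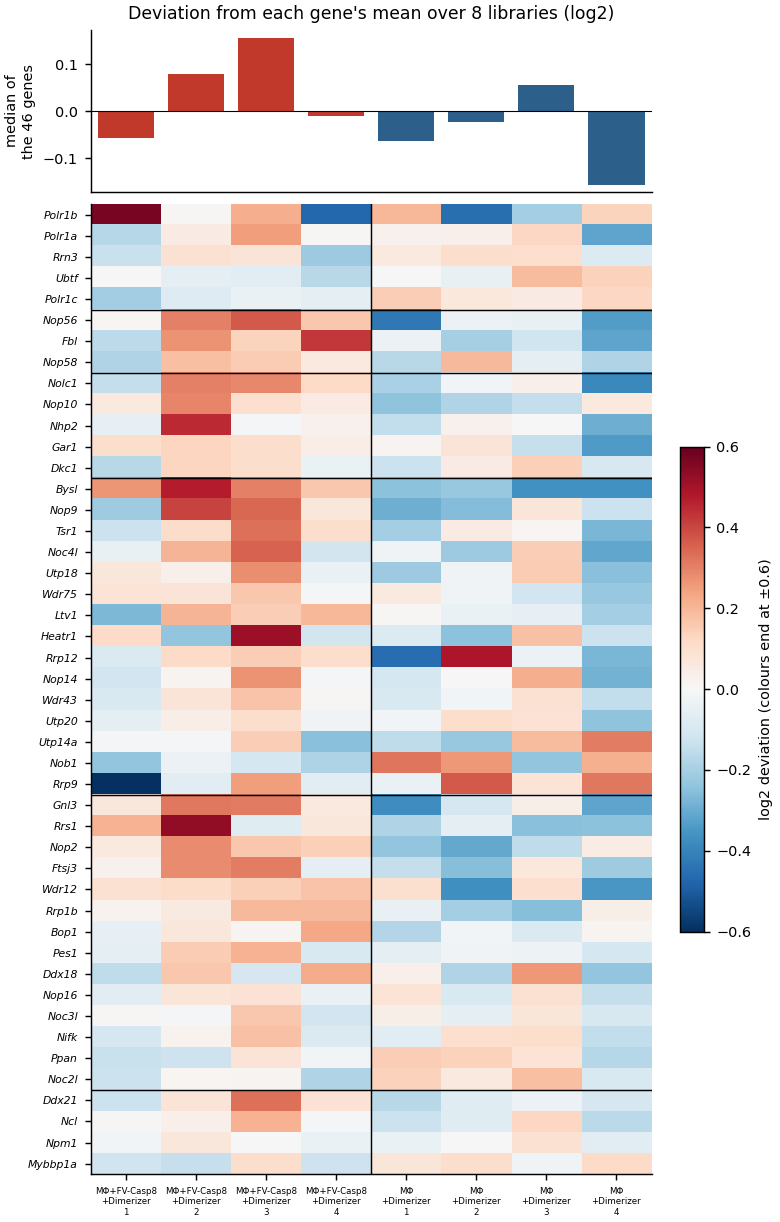
Deviation of each of the 46 genes from its own mean over the 8 libraries on the log2 scale (colours, ending at ±0.6; rows grouped by role, the 4 MΦ+FV-Casp8+Dimerizer libraries left, the 4 MΦ+Dimerizer libraries right), with the median of the 46 genes in each library as bars. The medians of the groups overlap, with co-culture replicate 3 highest at 0.16 and dimerizer replicate 4 lowest at -0.16.

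Most other genes of the pathway did not pass the test either. A second list held 131 further genes, of which 127 were tested, including 8 of the MYC network. In all 12 rose (9.45%) and 3 fell (2.36%), against 15.0% and 13.7% of all genes tested. The 12 became 5 without co-culture replicate 2, 6 without co-culture replicate 3 or 4 or dimerizer replicate 1, 2 or 4, 6 without the filter on low counts and 7 with DESeq2, quantile normalization or upper-quartile scaling. Over all genes the count higher was 1449 to 1722 in these fits, against 1806. Outside the MYC network 10 of 119 rose and 1 fell, with a median log2 fold change of 0.05. For the large subunit 5 of 45 rose: Pelp1 (0.51, limma adjusted p = 0.00151) and Las1l (0.31), both of the complex that cuts out the second internal spacer, Rpf2 (0.29), the partner of Rrs1, Nmd3 (0.28), the export adaptor of the large subunit, and Nip7 (0.30). Pelp1 had means of 272 ± 24.1 counts in the co-culture and 191 ± 11.4 with dimerizer alone (SD, n = 4 each), without overlap. The call of Pelp1 held with each library left out, but the other calls did not. Rpf2 passed in 4 of these 8 fits (lost without co-culture replicate 2 or 4 or dimerizer replicate 1 or 4), Nmd3 in 3 (passing only without co-culture replicate 1 or 4 or dimerizer replicate 1), Las1l in 2 (only without co-culture replicate 2 or dimerizer replicate 3) and Nip7 in 1 (only without co-culture replicate 4). Their highest limma adjusted p values were 0.0694 for Rpf2, 0.0862 for Nmd3, 0.126 for Las1l and 0.123 for Nip7. Rrp8 and Wdr74 had the lowest adjusted p on the other side, at -0.29 and -0.23, and did not pass.

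For the small subunit 4 of 37 rose. These were Utp11 (0.28), Mphosph10 (0.37), Wdr36 (0.25) and Utp6 (0.33), all parts of the early processome. Utp11 averaged 630 ± 16.1 counts in the co-culture and 517 ± 8.73 with dimerizer alone (SD, n = 4 each), without overlap and with little spread (limma adjusted p = 0.00624). Utp11 and Mphosph10 passed with each library left out, while Wdr36 and Utp6 passed in 2 of these 8 fits each (only without co-culture replicate 1 or dimerizer replicate 3), with highest limma adjusted p values of 0.111 for Wdr36 and 0.113 for Utp6. Ngdn and Imp3 (-0.15 each) did not pass. Among 12 genes listed for snoRNP assembly Znhit3 rose (0.42, limma adjusted p = 0.0490) and Nop53 fell, while Nufip1 (0.23) and Pih1d1 (-0.15), which work on the same assembly path as Znhit3, did not pass. The call of Znhit3 was lost under 5 of 12 other settings and in 6 of 8 fits with 1 library left out (all but those without co-culture replicate 1 or dimerizer replicate 4), at a limma adjusted p for Znhit3 of up to 0.121. Nop53 averaged 691 ± 55.0 counts in the co-culture and 882 ± 53.1 with dimerizer alone (SD, n = 4 each), without overlap (log2 fold change -0.35, limma adjusted p = 0.00481). Nop53 acts on the precursor of the large subunit, but was listed under snoRNP assembly and so is not among the 45 large subunit genes above. It has also been linked to p53.

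Of 11 further genes for RNA polymerase I transcription, 0 passed. Its subunits Cd3eap and Twistnb had log2 fold changes of 0.23 and 0.16, the terminator protein Ttf1 had -0.14, and Baz2a, a subunit of the complex that silences ribosomal DNA, had -0.29 (limma adjusted p = 0.0741). Baz2a passed without co-culture replicate 3 (adjusted p for Baz2a 0.0331). Of 14 genes for the exosome and trimming, 0 passed as well. The nuclease Xrn2, at 0.24, came closest (limma adjusted p = 0.0527), and passed with counts scaled to the total reads, with array weights and without co-culture replicate 1 or dimerizer replicate 3 (adjusted p for Xrn2 of 0.0198, 0.0322, 0.0233 and 0.0188), while the exosome cofactor C1d had 0.29, the exosome subunit Exosc4 -0.15 and its helicase Mtrex -0.05.

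The MYC network joins MYC and its antagonists, which compete for the shared partner MAX. Myc itself had 60.9, 70.6, 46.8 and 67.4 counts in the co-culture and 49.5, 43.9, 30.6 and 32.4 with dimerizer alone. Co-culture replicate 3 lay just below dimerizer replicate 1, and the other three lay above all dimerizer libraries. Myc rose by 0.65 on the log2 scale (SE 0.20, limma adjusted p = 0.0280). It was lost without co-culture replicate 1, 2 or 4 or dimerizer replicate 3 or 4, at adjusted p values for Myc of 0.0519, 0.0797, 0.0795, 0.0756 and 0.0743.

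Mxd3, an antagonist known to be made in S phase, had 23.0, 37.5, 22.4 and 19.6 counts in the co-culture and 9.6, 6.4, 3.7 and 2.9 with dimerizer alone. The groups did not overlap (log2 fold change 2.06, SE 0.37, limma adjusted p = 0.00109). With a dimerizer mean of 5.68, Mxd3 reached the mean of 10 needed for a test only through its co-culture libraries. Its log2 fold change lay between 1.53 and 2.32 under the other settings. The antagonists Mxd4 and Mnt fell. Mxd4 averaged 1388 ± 124 counts in the co-culture and 1806 ± 51.1 with dimerizer alone (SD, n = 4 each; log2 fold change -0.38, limma adjusted p = 0.00202). Mnt averaged 653 ± 86.8 in the co-culture and 869 ± 99.7 with dimerizer alone (SD, n = 4 each; log2 fold change -0.41, limma adjusted p = 0.0101). Max, Mlx, Mxi1 and Mxd1 did not pass, with log2 fold changes between -0.05 and 0.16, and Mycn and Mycl had means under 10 and were not tested.

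**Figure D4:**
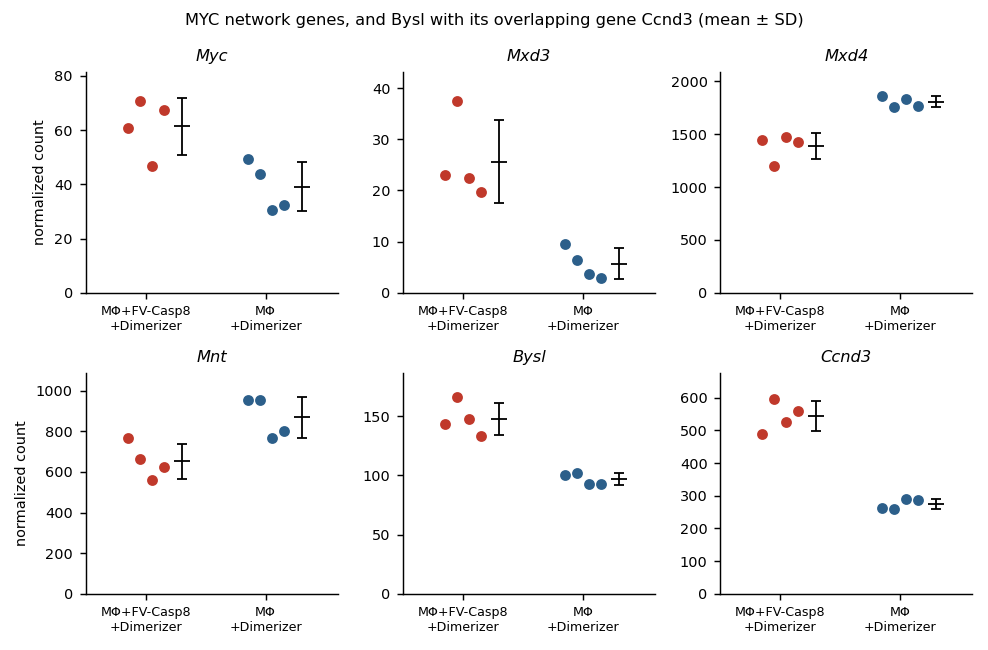
Normalized counts per library (points, replicates 1 to 4 from left to right) of Myc, Mxd3, Mxd4 and Mnt, and of Bysl beside its overlapping neighbour Ccnd3, with the mean and SD of each group (n = 4). Mxd3, Bysl and Ccnd3 are higher in all 4 co-culture libraries and Mxd4 is lower in all 4, while Myc and Mnt overlap between the groups.

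The range of these changes was set beside genes of cell division. All 15 genes of a list of mitosis genes, chosen with these results known, were higher in the co-culture, with a median log2 fold change of 2.07. Their summed count was 6713 ± 2234 in the co-culture and 1565 ± 142 with dimerizer alone (SD, n = 4 each), a ratio of 4.29. Among the 4 co-culture libraries that sum was highest in replicate 2 (9601), then in replicate 3 (7210), 4 (5588) and 1 (4452), with replicates 2 and 3 ahead as for the 46 genes. With dimerizer alone it was 1681, 1357, 1610 and 1611 in replicates 1 to 4, an order unlike that of the 46 genes, for which replicate 3 was highest and replicate 4 lowest. The 75 cytosolic ribosomal protein genes tested had a median log2 fold change of -0.02. Many ribosomal protein genes have processed copies, so their counts carry the same doubt as that of Npm1.

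**Figure D5:**
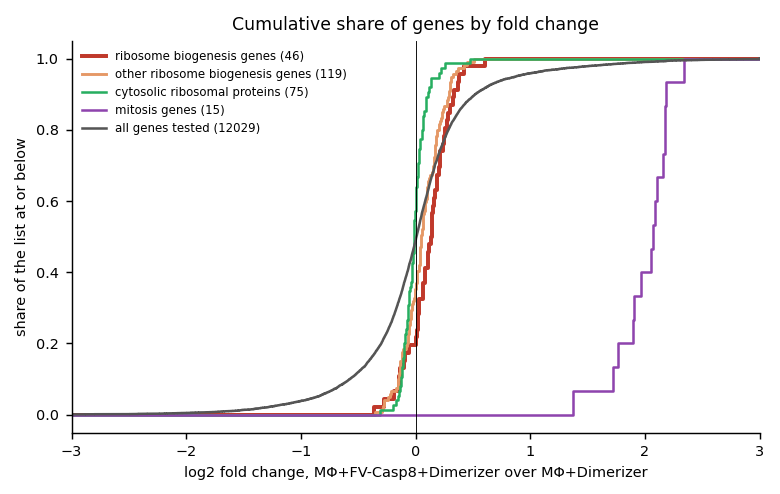
Cumulative share of genes (y axis) at or below a log2 fold change (x axis, MΦ+FV-Casp8+Dimerizer over MΦ+Dimerizer) for the 46 ribosome biogenesis genes, 119 other genes of the pathway, 75 cytosolic ribosomal protein genes, 15 mitosis genes and all 12029 genes tested. The 46 genes have a median of 0.14 and end at 0.60, and the mitosis genes start at 1.37.

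The promoters of the genes were read from the RefSeq table (GRCm38.p6), which covers 250 bases before to 50 bases after a start. It held 50 promoters of 41 of the 46 genes. The E-box CACGTG, the site MYC and MAX are known to bind, was found on either strand in 9 of the 50 (18%), against 10.2% of the promoters of genes tested and 7.15% of all promoters in the table. The letters CCGGAAGT, a site of ETS factors, were in 10 of the 50 (20%), against 8.41% and 3.89%. The NRF1 site was in 0 of the 50, against 2.14% and 0.971%. Of the 5 genes that rose 4 were in the table, and 0 of these promoters held the E-box or the ETS letters. A match is only a string of letters in this window and was not tested for binding.

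Rrn3, Nop2 and Utp18 were the 3 genes whose E-box lay before the start, and their stretches are shown with that of Nhp2, one of the genes with the ETS letters. Their log2 fold changes were -0.09, 0.33, 0.17 and 0.21, and 0 of the 4 passed. The stretches are chr16:13780639-13780698 (plus strand) for Rrn3, chr6:125131803-125131862 (plus strand) for Nop2, chr11:93885767-93885826 (minus strand) for Utp18 and chr11:51619713-51619772 (plus strand) for Nhp2, each of 60 bases, and capitals mark the motif.
Rrn3: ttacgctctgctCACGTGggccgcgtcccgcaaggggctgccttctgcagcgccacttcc
Nop2: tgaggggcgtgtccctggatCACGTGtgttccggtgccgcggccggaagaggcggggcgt
Utp18: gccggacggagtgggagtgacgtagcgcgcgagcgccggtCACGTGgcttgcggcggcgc
Nhp2: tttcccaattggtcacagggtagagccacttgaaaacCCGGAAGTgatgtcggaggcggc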

How the data were processed

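QuantSeq 3′ mRNA libraries with molecular identifiers were made from 4 co-cultures (MΦ+FV-Casp8+Dimerizer) and 4 cultures with dimerizer alone (MΦ+Dimerizer), grouped and numbered as the sample labels give. Reads were mapped to GRCm38 by the authors with Lexogen's FWD UMI pipeline, and the processing notes name STAR, HTSeq and DESeq2. Versions of STAR, HTSeq and DESeq2, the annotation release and the strand setting of the counting are not given in the sources used here. Deposited values are normalized counts, of the unit signal: reads divided by a size factor of each library. All of them (100%) were whole reads within 0.001 once multiplied by that factor, and the factors equalled median-of-ratios factors over the 8 libraries. Of 47643 genes 99.1% matched GENCODE M21, the source of symbols and coordinates. Libraries held 5904441 to 11506556 reads, and none was a duplicate of another (chi-square per degree of freedom 4.32 to 15.86 within groups).

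Fold changes were computed with limma 3.58.1 (R 4.3.3) on log2(normalized count + 1), a scale that compresses changes of genes with few reads, with a variance trend, for 12029 genes with a mean of at least 10. The p values weigh the difference between the groups against the spread of the libraries within a group. They were adjusted over all these genes (Benjamini-Hochberg), with 0.05 as threshold. In a simulation of 4 against 4 libraries with 200 changed genes among 12029, limma found 44.8% of 1.5-fold, 89.6% of 2-fold and 100% of 4-fold changes and made 10 false calls over genes of all depths. In the data 3452 genes were called. The adjustment depends on how many genes change, so these shares need not hold for the data. The 46 genes, the other lists and the tests were chosen with earlier results of these data known. Values in every library are given, in each role, for the gene with the highest mean and the 3 with the smallest adjusted p. Each of the 46 that did not pass is named, and of the second list (129 of 131 symbols matched) the 2 genes with the smallest adjusted p in each direction per role. Its further genes that passed, the MYC network genes that did not, and Ccnd3 and Idh3b were named after their values were seen. Calls of single ribosomal protein genes are not reported here. Alternatives were other pseudocounts, filters and scalings, edgeR 4.0.16 and DESeq2 1.42.0 on the recovered reads, a replicate block, array weights, a robust trend, an adjusted p under 0.01 and each library left out in turn. Python 3.11.15, pandas 2.3.3, numpy 2.4.6 and matplotlib 3.10.9 made the tables and figures.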

Additional observations from a re-analysis of the deposited data

Results flagged for a closer look

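In 3 of the 92 groups of 4 libraries formed by the 46 genes and both conditions, 1 library lay far from the other three by Dixon's test. Nhp2 had 259.8 counts in co-culture replicate 2, where the other co-culture libraries had 183.8 to 193.5. Ltv1 had 256.1 counts in co-culture replicate 1, where the others had 342.8 to 356.0. Mybbp1a had 501.5 counts in co-culture replicate 3, where the others had 422.8 to 428.4. Chance marks about 1 in 20 groups, or 4.6 of 92, so 3 is no more than chance gives. None of these 3 genes passed the test with the library or without it.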

How the results depend on the processing

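Of the 46 genes 5 rose, and this count was 3 with quantile normalization (with Polr1c as 1 gene lower), 8 with counts scaled to the total reads, 1 at an adjusted p under 0.01 (Bysl) and between 1 (without dimerizer replicate 1) and 7 (without co-culture replicate 1) with 1 library left out. It was 2 without co-culture replicate 2 and 3 without co-culture replicate 3, and 4 to 6 under the other settings apart from the replicate block given below. Over the second list 12 genes rose, against 6 without the filter, 7 with quantile normalization, 7 with upper-quartile scaling, 7 with DESeq2, 4 at an adjusted p under 0.01 and 5 to 10 with 1 library left out (5 without co-culture replicate 2, and 6 without co-culture replicate 3 or 4 or dimerizer replicate 1, 2 or 4). Over all genes 1104 rose and 968 fell at an adjusted p under 0.01, against 1806 and 1646, and edgeR on the recovered reads called 1741 and 1746. With 1 library left out 1449 to 1698 of all genes rose. The cause of these shifts was not tested beyond the smaller number of libraries. The median log2 fold change of the 46 genes stayed between 0.09 and 0.18. The libraries were not treated as pairs: deviations of libraries that share a number correlated at 0.09, 0.34, 0.29 and 0.19 over genes, 1 of them under 0.1, although each correlated best with its own number. With the replicate number as a block 9 of the 46 genes rose, adding Ddx21, Ftsj3, Nolc1 and Nop9, and 17 rose and 5 fell in the second list. Of its named genes that had not passed, Xrn2 and C1d rose and Baz2a and Rrp8 fell with the block. Across settings, 966 tests of single genes among the 46 were made. Of these 923 kept their status, called or not, 28 lost a call and 15 gained one. Only a gene called in the main fit can lose a call, so all 28 lost calls were by definition among the 5 genes that rose. Of the calls, 0 turned round. Genes that did not pass could change sign between settings, as Polr1a did (-0.03 to 0.13). At this depth the median SE of the 46 genes was 0.11 on the log2 scale.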
